A study of Mus musculus with 8 samples.

Results

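The genes described here are 7 enzymes of folate-dependent one-carbon metabolism: Tyms, Mtr, Mtrr, Shmt1, Shmt2, Mthfd1 and Mthfd2. They were matched by gene symbol in a table of 57180 mouse genes, all 7 were found, and all 7 were among the 14755 genes with enough counts to be tested. The set was chosen by measured values, namely a higher level of Tyms and a lower level of Mtr in the KO libraries, so the difference between the groups is given for these genes as a description, without a p-value. The material was RNA sequencing of regulatory T (Treg) cells, a lineage of T cells that holds other lymphocytes in check, isolated from mice by fluorescence sorting. There were 5 libraries titled chimera WT and 3 titled chimera KO, called WT-labelled and KO-labelled below. The labels name no deleted gene, strain, age or treatment, do not say how the chimeras were made, and do not tie a library to 1 animal, so any p-value measures the spread between these libraries. The series title concerns copper and suppression by Treg cells.

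Folate carries single carbon groups between serine, purines, thymidylate and methionine. Serine hydroxymethyltransferase, encoded by Shmt1 for the cytosol and Shmt2 for the mitochondria, loads the carbon from serine onto tetrahydrofolate, and Mthfd1 (cytosolic) and Mthfd2 (mitochondrial) encode the enzymes that interconvert the loaded forms. Tyms encodes thymidylate synthase, which spends methylene-tetrahydrofolate to make the thymidylate needed for DNA synthesis. Mtr encodes methionine synthase, which passes the methyl group of methyltetrahydrofolate through cobalamin to homocysteine, and Mtrr encodes the reductase that restores its cobalamin cofactor. In T cells the mitochondrial arm, Shmt2 and Mthfd2, is known for its induction when the cells are activated and begin to divide.

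The 8 libraries were uneven. Totals ran from 10.5 to 17.98 mega counts (M) in the WT-labelled and from 4.31 to 8.48 M in the KO-labelled group. The TMM factors of edgeR, by which library sizes are multiplied before scaling to CPM, counts per mega counts (normalised CPM), were 1.08 to 1.15 in WT-labelled replicates 1 to 3, 0.4 and 0.689 in replicates 4 and 5, and 1.32 to 1.49 in the KO-labelled libraries. WT-labelled replicates 4 and 5 had the fewest genes detected at 10 counts or more, 8250 and 9484, against 12491 to 14318 in the other libraries. The 8 Treg markers summed to 3267 to 6551 normalised CPM in the WT-labelled group and 871 to 3018 in the KO-labelled libraries, without overlap. All 8 had negative log2 changes (KO minus WT), with a median of −1.59. The median was −0.42 over all genes tested and −0.87 over the 10750 tested protein-coding genes. Ctla4 was wholly lower in the KO-labelled libraries, as were 4.49% of all genes tested and 5.44% of the protein-coding ones. Foxp3, the transcription factor that defines the lineage, was detected in all 8 libraries, at 1.26 to 41.95 and 2.69 to 26.6 (log2 change −0.09, SE 1.35). B cell markers summed to 6511 and markers of NK and cytotoxic cells to 4276 in WT-labelled replicate 4, against at most 611 and 143.5 in any other library, and erythroid markers summed to 9557 in WT-labelled replicate 5 against at most 22.2 elsewhere. In the KO-labelled libraries 5 of the 9 NK and cytotoxic markers, Ncr1, Gzma, Gzmb, Prf1 and Klrd1, were at 0 counts. The sums in the KO-labelled group were 135 to 215 for B cells, 4.49 to 63.2 for NK and cytotoxic cells, 0.449 to 7.34 for erythroid cells and 23.3 to 87.8 for myeloid cells. In bulk RNA, fewer cells of a type and less RNA per cell cannot be told apart. Leaving out WT-labelled replicates 4 and 5 gave a log2 change (KO minus WT) of 1.87 for Tyms and of −8.17 for Mtr, close to the values with all libraries given below.

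The stretch of Tyms shown first bears on how its counts can be read, because the mouse genome holds a processed pseudogene, Tyms-ps, with nearly the same letters. Tyms (ENSMUSG00000025747) lies on chromosome 5, 30058202 to 30073617, minus strand of GRCm38 (mm10), has 7 exons in its main transcript in GENCODE M21, and overlaps no other annotated gene. Tyms-ps (ENSMUSG00000112222, chromosome 10, 87966847 to 87967761, plus strand) spans 915 bases. Aligned with bases 71 to 991 of the Tyms transcript, which are nearly all of its coding part, it was identical in 877 of 935 columns (93.8%), with 24 mismatched and 34 gap columns. The 90-base coding window with the most mismatches and no gap is printed 5′ to 3′ from the GENCODE M21 transcripts, bases 115 to 204 of Tyms and 36 to 125 of Tyms-ps, with the 5 mismatched bases in capitals.
Tyms: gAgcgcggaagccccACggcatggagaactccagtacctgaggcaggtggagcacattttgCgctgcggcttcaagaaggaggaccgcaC
Tyms-ps: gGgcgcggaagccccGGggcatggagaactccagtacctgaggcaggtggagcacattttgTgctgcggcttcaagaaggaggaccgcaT
Tyms-ps was listed at 0 counts in all 8 libraries, and no other row of the table is named in its symbol or description as a copy of one of the 7 genes.

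A different kind of shared sequence lies in the 3′ UTR of Tyms, as the plot of shared windows along the transcript shows. The transcript was cut into all windows of 31 bases, and each was looked up, on either strand, in the transcripts of every other gene in GENCODE M21. In the coding part, bases 71 to 994, 297 of 894 windows (33.2%) were found elsewhere, each in 1 other gene, Tyms-ps. In the 3′ UTR, bases 995 to 3163, 376 of 2139 windows (17.6%) were shared, by up to 93 other genes for 1 window, and in the 5′ UTR 0 of 40 were shared. The 228 windows found in 10 or more other genes lay between bases 1032 and 1368. In total 412 genes share at least 1 window with Tyms, and after Tyms-ps the longest matches were in Olfr338 (165 windows), Jakmip2 (153) and Vmn1r-ps144 (149), of which Olfr338 and Vmn1r-ps144 are named as an olfactory receptor gene and a vomeronasal receptor pseudogene. Over the whole transcript 21.5% of windows of Tyms were shared, against 6.08% for Shmt1, 5.05% for Shmt2, 1.96% for Mtrr, 0.218% for Mthfd1 and 0% for Mtr and Mthfd2. The median over 21899 protein-coding genes was 1.31%, and 20.7% of them had a share at least as high as that of Tyms.

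**Figure D1:**
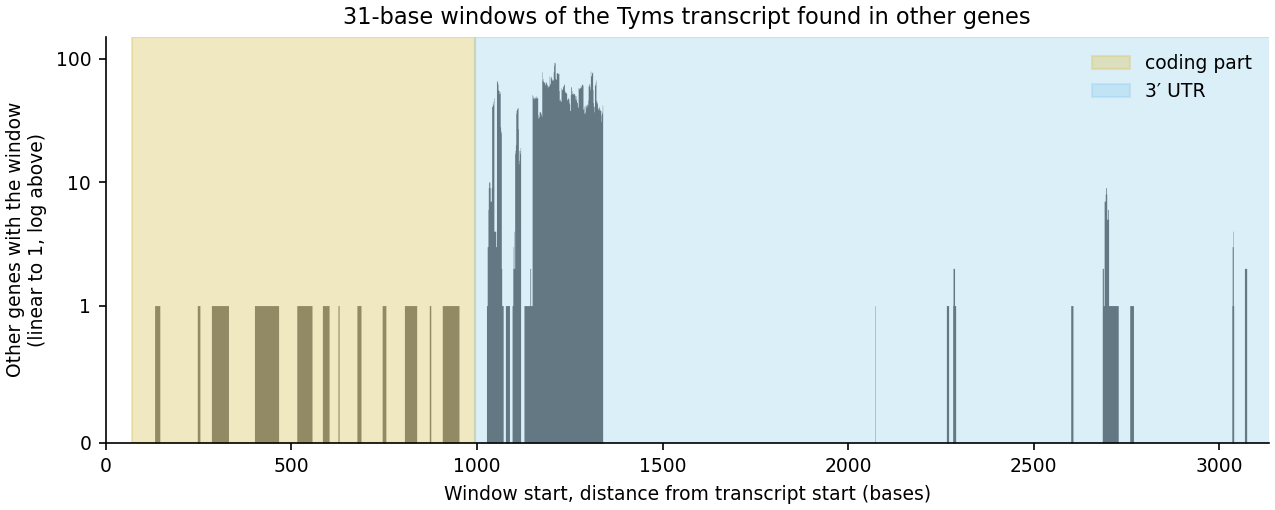
Number of other genes in GENCODE M21 that hold each 31-base window of the Tyms transcript (y axis, linear to 1 and logarithmic above) against the start of the window (x axis, bases from the transcript start), with the coding part and the 3′ UTR shaded. Shared windows of the coding part are each found in 1 other gene, and those found in 10 or more lie in the first part of the 3′ UTR, up to 93 genes for a single window.

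Tyms was the only one of the 7 genes to stand higher in every KO-labelled than in every WT-labelled library. In WT-labelled replicates 1 to 5 it had 2099, 2130, 1974, 927 and 1591 estimated counts, or 174, 185, 166, 130 and 222 normalised CPM. In KO-labelled replicates 1 to 3 it had 3932, 3800 and 5393 counts, or 344, 568.2 and 965 normalised CPM. The groups did not overlap, and the KO-labelled libraries differed among themselves by more than the WT-labelled ones did. The means were 175 ± 33.1 (SD, n = 5) and 626 ± 315 (SD, n = 3) normalised CPM, a log2 change of 1.84 (SE 0.51). This contrast chose the gene, so nothing is read from its separation. Among all genes tested, 13.2% had every KO-labelled library above every WT-labelled one, and 13.6% (2014 genes) had a log2 change at least as large as that of Tyms. On CPM without TMM factors Tyms stood at 198, 200, 177, 51.5 and 151 in the WT-labelled group and 464, 832 and 1250 in the KO-labelled libraries. The gap was wider on that scale, where 18.9% of genes lay wholly above, and WT-labelled replicate 4 was the lowest library on both scales.

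**Figure D2:**
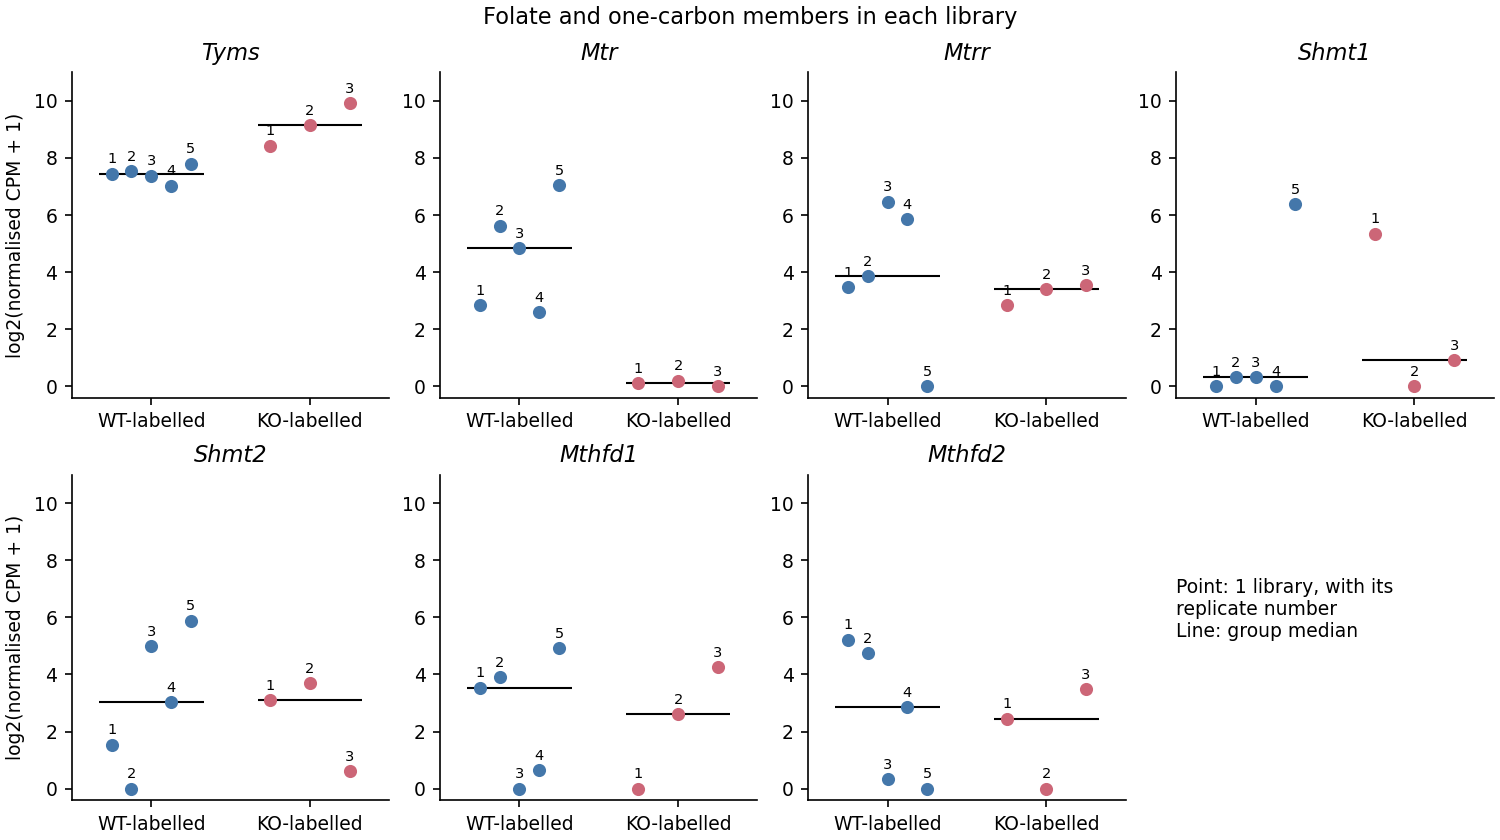
Level of each of the 7 genes in every library, as log2(normalised CPM + 1), in 5 WT-labelled and 3 KO-labelled libraries; points are single libraries marked with their replicate number and lines are group medians. The KO-labelled points of Tyms lie above and those of Mtr below all WT-labelled points, and the groups overlap for the other 5 genes.

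Within the WT-labelled group the values of Tyms were close together and those of the other members were not. These are the same libraries by which Tyms was chosen, so the spread is a description and supports nothing about the gene. Its coefficient of variation over the 5 libraries was 18.9%, against a median of 99.2% over 14748 genes, and 0.536% of genes were as even. The value depended on the scaling: without TMM factors it was 39.5% against a median of 93.9%, and 4.08% of genes were as even. In the KO-labelled group it was 50.3% against a median of 68.4%. The other 6 genes had coefficients of variation of 110 to 222% in the WT-labelled group, at or above the median gene, and Shmt1 was the most uneven of them, with 98.8% of genes at its value or below.

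Measures of the counting and of the libraries are given here beside the values of Tyms. The estimated counts of Tyms were not whole numbers in any of the 8 libraries, as happens when reads that match several places are divided among them, whereas those of Mtr, Shmt2, Mthfd1 and Mthfd2 were whole in all 8. Among all genes tested 31.8% had values that were not whole in every library. The 2010 olfactory and vomeronasal receptor genes, which are not typical of T cells, held 1.28, 1.21, 1.12, 0.143 and 0.746% of counts in WT-labelled replicates 1 to 5 and 2.09, 4.95 and 5.43% in KO-labelled replicates 1 to 3. These shares were higher in the 3 KO-labelled libraries than in the 5 WT-labelled ones. Ranked by the share, the KO-labelled libraries came in the same order as by Tyms, with or without TMM factors. By normalised CPM of Tyms the WT-labelled ones did not: replicate 5 was highest and had the lowest share but 1. The share, however, was taken of counts without TMM factors. On CPM without these factors the WT-labelled order by Tyms was that of the share, apart from replicates 1 and 2. Those 2 libraries were close on both measures (Tyms 198 and 200 CPM, shares 1.28 and 1.21%). The TMM factors of WT-labelled replicates 1 to 5 (1.15, 1.09, 1.08, 0.4 and 0.689) had the same order as the shares. A gene with even normalised CPM follows these factors when they are left out, so nothing is read from the agreement in order. Of 55 other tested protein-coding genes that have at least 50 windows in common with Tyms, a minimum chosen after the data were seen, 49 (89.1%) had positive log2 changes, with a median of 1.73. In 39 of them (70.9%) the KO-labelled libraries lay wholly above and in 0 wholly below. The 32 olfactory and vomeronasal receptor genes among them had a median of 1.79 and 32 positive changes, and the other 23 had a median of 1.56 and 17 positive changes. The filter keeps a gene with enough counts in 3 libraries, the size of the KO-labelled group. A gene of low level can thus be tested through the KO-labelled libraries alone, which favours positive changes. The classes of genes compared here were not matched for level, so no support is drawn from these counts. Over all 10750 tested protein-coding genes 33.4% were positive, with a median of −0.87 and 8.41% wholly above. Of 1818 protein-coding genes with a share of windows at least that of Tyms 32.9% were positive, with a median of −1.01 and 9.63% wholly above, and of 3281 with a share of 0 these values were 28.4%, −1.12 and 5.94%. Of 2933 protein-coding genes other than Tyms with values that were not whole in all 8 libraries 42.9% were positive, with 14.5% wholly above, against 25.1% and 5.17% of the 3443 with whole values in all 8. Neither the shared sequence, the values that were not whole nor the receptor share was tested for its part in the Tyms difference, and reads on the coding part and on the 3′ UTR are not separate in the table.

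Mtr stood at the other extreme, nearly absent from the KO-labelled libraries. Mtr (ENSMUSG00000021311, chromosome 13, 12182712 to 12258113, minus strand, no overlapping gene) had 75, 560, 327, 36 and 934 counts in WT-labelled replicates 1 to 5 and 1, 1 and 0 in KO-labelled replicates 1 to 3. On normalised CPM these were 6.22, 48.6, 27.5, 5.06 and 130 against 0.0875, 0.150 and 0. The lowest WT-labelled library, replicate 4, was well above the highest KO-labelled one, but the WT-labelled libraries themselves spanned a range from 5.06 to 130. The means were 43.5 ± 51.7 (SD, n = 5) and 0.079 ± 0.0751 (SD, n = 3). Summed over the groups there were 2 counts in 17.4 M against 1932 in 60.9 M, or 0.115 against 31.7 CPM. The ratio was 275-fold, with a 95% exact interval of 76.1 to 2270 on these summed counts. The interval covers counting error alone and leaves out the spread between libraries. It also takes each count as independent, which cannot be checked, as the libraries have no molecular identifiers. This contrast chose the gene, so nothing is read from the interval. The fitted log2 change of −8.84 (SE 2.004) depends on the prior count and is no bound. Of all genes tested 4.49% lay wholly below in the KO-labelled group (1.66% without TMM factors), and 0.325% (48 genes) had a log2 change as low as that of Mtr. With the limits set by Mtr itself, at most 1 count in each KO-labelled and at least 36 in each WT-labelled library, 1 gene of the table met both, Mtr, and 2 genes met the mirror image. The WT-labelled library with the fewest counts of Mtr, replicate 4, still had 2.003 CPM without TMM factors, against at most 0.219 in a KO-labelled library.

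Mtrr, the reductase partner of Mtr, did not share this pattern. Mtrr (ENSMUSG00000034617, chromosome 13, 68560780 to 68582149, minus strand, no overlapping gene) had 122, 155, 1046, 405 and 0 counts in the WT-labelled group and 71.2, 64.1 and 59.7 in the KO-labelled libraries. On normalised CPM it stood at 10.1, 13.4, 87.9, 56.9 and 0 against 6.21, 9.57 and 10.7. The KO-labelled libraries were close together and inside the range of the WT-labelled ones, which included both the highest value, in replicate 3, and a count of 0, in replicate 5. A count of 0 allows up to 3 counts. The means were 33.7 ± 37.4 (SD, n = 5) and 8.84 ± 2.35 (SD, n = 3), with a log2 change of −1.93 (SE 1.72), within the spread of the libraries. Among KO-labelled libraries Mtrr was even, with a coefficient of variation of 26.6% against a median of 68.4%, and 11.2% of genes were as even. Per length of transcript (TPM, computed from the counts and the deposited gene lengths), Mtr was 0.622 and 0.690% of the sum of Mtr and Mtrr in KO-labelled replicates 1 and 2 and 0% in replicate 3. In the WT-labelled libraries it was 21.5, 61.6, 12.2, 3.81 and 100%, the last being the library without Mtrr.

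Shmt1, the cytosolic serine hydroxymethyltransferase, was present in 1 library of each group and at or near 0 in the others. Shmt1 (ENSMUSG00000020534, chromosome 11, 60788104 to 60811718, minus strand) had 0, 3.37, 3.21, 0 and 594 counts in the WT-labelled group and 455, 0 and 4.76 in the KO-labelled libraries. On normalised CPM it reached 82.9 in WT-labelled replicate 5 and 39.8 in KO-labelled replicate 1, and was no higher than 0.895 in any other library. The means were 16.7 ± 37.0 (SD, n = 5) and 13.6 ± 22.7 (SD, n = 3). The groups overlapped, with a log2 change of −0.29 (SE 2.70) that turned positive when KO-labelled replicate 2 (0.27) or 3 (0.25) was left out. WT-labelled replicate 5 was the library with the erythroid markers and KO-labelled replicate 1 was not, with an erythroid sum of 3.06 normalised CPM, and the part of these cells in the Shmt1 values was not tested. Shmt1 overlaps Smcr8 and the small nucleolar RNA gene Gm24945 on the other strand, and because the library kit is unstranded their reads cannot be told apart where they overlap.

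Shmt2, the mitochondrial enzyme, varied from library to library in both groups. Shmt2 (ENSMUSG00000025403, chromosome 10, 127517123 to 127522444, minus strand) had 23, 0, 364, 51 and 417 counts in the WT-labelled group and 87, 80 and 3 in the KO-labelled libraries. It stood at 1.91, 0, 30.6, 7.16 and 58.2 normalised CPM against 7.61, 12.0 and 0.537. Both groups held a library near 0, WT-labelled replicate 2 and KO-labelled replicate 3, and the 2 highest values were WT-labelled. The means were 19.6 ± 24.8 (SD, n = 5) and 6.70 ± 5.77 (SD, n = 3). The log2 change was −1.54 (SE 1.91), and it was 1.24 in limma-voom with quality weights. Shmt2 overlaps Ndufa4l2 on the other strand. Per length, Shmt2 made up 99.3 to 100% of the sum of both Shmt genes in WT-labelled replicates 1, 3 and 4 and KO-labelled replicate 2, and 46.7, 19.3 and 44.0% in WT-labelled replicate 5 and KO-labelled replicates 1 and 3. Neither gene reached 10 counts in WT-labelled replicate 2.

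Mthfd1, which encodes the cytosolic trifunctional enzyme, also overlapped between the groups. Mthfd1 (ENSMUSG00000021048, chromosome 12, 76255298 to 76319803, plus strand) had 128, 160, 0, 4 and 211 counts in the WT-labelled group and 0, 34 and 101 in the KO-labelled libraries, or 10.6, 13.9, 0, 0.562 and 29.4 against 0, 5.08 and 18.1 normalised CPM. High and near-absent libraries were found in both groups. The means of 10.9 ± 12.0 (SD, n = 5) and 7.72 ± 9.32 (SD, n = 3) differed by less than either SD, with a log2 change of −0.50 (SE 2.03) that was 0.34 without WT-labelled replicate 5. The gene overlaps Gm47525, Gm47526 and Gm34868 on the other strand.

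Mthfd2, which encodes the mitochondrial enzyme associated with dividing cells, was highest in 2 WT-labelled libraries. Mthfd2 (ENSMUSG00000005667, chromosome 6, 83305691 to 83325908, minus strand, overlapping the unconfirmed gene model Gm43890 on the same strand) had 435, 298, 3, 44 and 0 counts in the WT-labelled group and 51, 0 and 57 in the KO-labelled libraries. On normalised CPM it stood at 36.1, 25.8, 0.252, 6.18 and 0 against 4.46, 0 and 10.2. WT-labelled replicates 1 and 2 lay above the other 6 libraries, and WT-labelled replicate 5 and KO-labelled replicate 2 had 0 counts. The means were 13.7 ± 16.4 (SD, n = 5) and 4.89 ± 5.11 (SD, n = 3), with a log2 change of −1.48 (SE 2.12). The WT-labelled libraries rich in Mthfd2 were not those rich in Shmt2, the other mitochondrial enzyme, which was highest in replicates 3 and 5. Per length, Mthfd2 was 84.1 and 74.3% of the sum of Mthfd2 and Mthfd1 in WT-labelled replicates 1 and 2, 94.5% in replicate 4 and 46.7% in KO-labelled replicate 3. It was 100% in WT-labelled replicate 3 and KO-labelled replicate 1, where Mthfd1 had no counts, and 0% where Mthfd2 had no counts, in WT-labelled replicate 5 and KO-labelled replicate 2.

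Compared per length, Tyms was the most abundant of the 7 in every library, and the genes after it changed from library to library. Tyms stood at 108, 116, 87.5, 18.8 and 67.6 TPM in the WT-labelled group and 259, 421 and 638 TPM in the KO-labelled libraries. It made up 68.85, 68.96, 56.3, 64.87 and 46.97% of the summed TPM of the 7 genes in the WT-labelled group and 83.75, 95.02 and 95.64% in the KO-labelled libraries, shares that the TMM factors cannot change. The other 6 genes together summed to 48.8, 52.2, 67.9, 10.2 and 76.3 TPM in the WT-labelled group and 50.3, 22.1 and 29.0 TPM in the KO-labelled libraries, so their sums overlapped between the groups. Second after Tyms came Mthfd2 in WT-labelled replicates 1 and 2, Mtrr in replicates 3 and 4 and Shmt1 in replicate 5, then Shmt1, Shmt2 and Mthfd1 in KO-labelled replicates 1 to 3. By mean TPM the WT-labelled order was Tyms (79.5 ± 38.8), Mthfd2 (12.0 ± 16.1), Mtrr (11.9 ± 15.8), Shmt2 (9.97 ± 12.3), Mtr (6.81 ± 6.43), Shmt1 (5.66 ± 12.5) and Mthfd1 (4.75 ± 4.40). Below Tyms no neighbours in that order differed by more than their SDs. In the KO-labelled group Mtr, at 0.0225 ± 0.0213 TPM, lay last, and the other 5 means ran from 5.11 for Mthfd1 and Mthfd2 to 11.3 for Shmt1. No neighbours among those 5 differed by more than the larger of their SDs. Shmt2 (6.89 ± 5.95) and Mtrr (5.39 ± 1.18) differed by more than the SD of Mtrr.

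**Figure D3:**
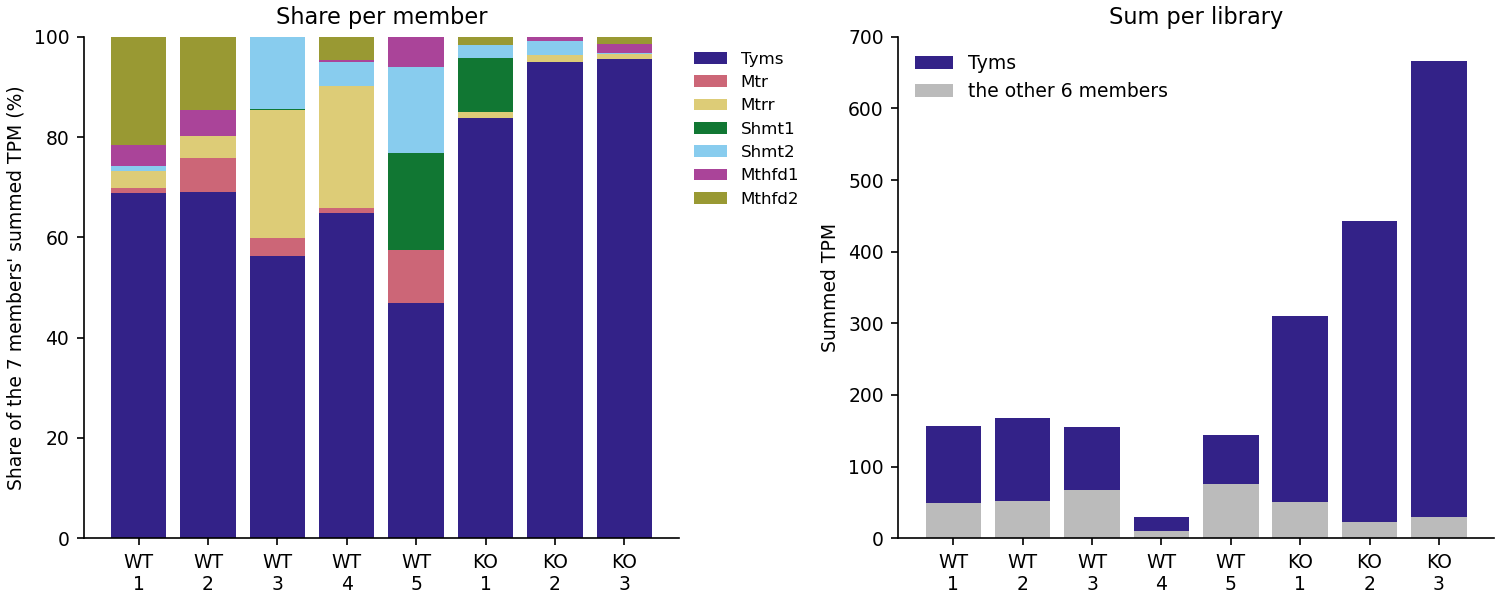
Left, share (%) of each of the 7 genes in their summed TPM in each library; right, the summed TPM per library with Tyms stacked above the other 6 genes. The share of Tyms is 46.97 to 68.96% in the WT-labelled group and 83.75 to 95.64% in the KO-labelled libraries, while the sums of the other 6 genes overlap.

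The rest of the pathway was described through 7 lists with 103 genes, all of them in the table and 77 of them tested. Some genes named below had a larger share of windows found in other genes than Tyms (21.5%). The highest shares were those of Mthfs (90.3%), Ahcy (79.4%), Phgdh (74.1%), Nme2 (55.4%) and Stmn1 (42.6%). The part of shared sequence in their levels was not tested. In edgeR's quasi-likelihood test with Benjamini-Hochberg adjustment over all genes, 0 of the 77 passed at 0.05, with a smallest adjusted p of 0.325, against 0% of all genes in either direction. At an unadjusted p under 0.05 there were 1 higher and 3 lower, against 7.96 and 6.43% of all genes tested. DESeq2 called 1 higher and 5 lower, against 7.13 and 11.1% of the genes to which it gave an adjusted p. Positive log2 changes numbered 27 of 77, against 43.2% of all genes (56.8% were negative), and the median was −1.25 against −0.42 over all genes tested. The KO-labelled libraries lay wholly above the others for 4 of the 77 genes and wholly below for 2, where 13.2% and 4.49% of all genes did. All genes tested include rows that are not protein-coding. Of the 10750 tested protein-coding genes alone 33.4% had positive log2 changes, with a median of −0.87. In 8.41% of those the KO-labelled libraries lay wholly above and in 5.44% wholly below.

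Genes of folate uptake and reduction showed no separation between the groups. Of 6 tested genes 1 had a positive log2 change (median −0.72), and in none were the groups apart. Slc19a1, the reduced folate carrier, had 31.5 ± 69.6 normalised CPM in the WT-labelled and 12.2 ± 11.7 in the KO-labelled group, with 155.9 in WT-labelled replicate 4. The exporters Abcc1 (26.2 ± 33.1 and 24.3 ± 9.83) and Abcg2 (46.95 ± 69.6 and 8.87 ± 13.9) also varied more within than between the groups.

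Of the 10 tested genes of folate interconversion outside the members, 3 had positive log2 changes, with a median of −0.97. Mthfd1l, the mitochondrial formate-releasing synthetase, stood at 37.6 ± 51.8 and 13.6 ± 12.6, and Mthfs, which returns formyltetrahydrofolate to the pool, at 161 ± 118 and 62.0 ± 28.7. Dld, shared by the glycine cleavage system, stood at 166 ± 214 and 37.7 ± 15.2, and Mtfmt, which formylates the mitochondrial initiator tRNA, at 37.7 ± 30.3 and 25.4 ± 7.65 (edgeR adjusted p of 0.389 to 0.751 for these 4).

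In the methionine cycle, 8 of 17 tested genes had positive log2 changes, with a median of −0.50. Mat2a, which makes the methyl donor S-adenosylmethionine, had 155 ± 140 normalised CPM in the WT-labelled group and 52.8 ± 31.9 in the KO-labelled group, and its regulatory partner Mat2b 531 ± 490 and 374 ± 24.7. Ahcy, which hydrolyses S-adenosylhomocysteine, had 89.5 ± 175 and 3.91 ± 2.79, with 399.8 in WT-labelled replicate 4 and 0 counts in replicates 2 and 5. The related Ahcyl2 had 168.5 ± 89.7 and 105 ± 88.6. None of these 4 passed in edgeR, with adjusted p of 0.421 to 0.708. Cd320, the receptor that takes up the cobalamin carrier, and Cbs, which diverts homocysteine to cystathionine, are named because their groups did not overlap, a choice made after seeing the values. Cd320 stood at 12.3 ± 5.59 and 44.3 ± 26.0 (log2 change 1.85, SE 0.91, adjusted p = 0.363 in edgeR and 0.0739 in DESeq2), and Cbs at 4.48 ± 2.89 and 11.8 ± 2.83 (1.40, SE 0.98, adjusted p = 0.470 in edgeR and 0.178 in DESeq2). Apip, of the methionine salvage route and likewise named after its values were seen, had 321, 91 and 49 counts in WT-labelled replicates 1 to 3 and 0 in the other 5 libraries. WT-labelled replicate 1 thus held 321 of the 461 counts. With the 0 counts of the KO-labelled group taken as 3, the median of the list stayed −0.50. The DESeq2 adjusted p was 0.00931 and that of edgeR 0.325, although WT-labelled replicates 4 and 5 were at 0 as well.

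Thymidylate is also made by salvage, and the genes of deoxynucleotide supply had no member wholly above in the KO-labelled group, as Tyms was. Of 12 tested genes 4 had positive log2 changes, with a median of −0.88. Tk1, the cytosolic thymidine kinase of dividing cells, stood at 0.913, 6.33, 0.588, 0.983 and 0.279 normalised CPM in the WT-labelled group and 0.612, 23.2 and 3.401 in the KO-labelled libraries, with overlapping groups (log2 change 2.30, SE 1.37, adjusted p = 0.407 in edgeR). Tk2, the mitochondrial thymidine kinase, stood lower, at 19.3, 86.2, 50.4, 43.5 and 158 against 11.9, 9.72 and 13.6, every KO-labelled value below the lowest WT-labelled one. Its log2 change of −2.61 (SE 1.01) had an adjusted p of 0.325 in edgeR and 0.00444 in DESeq2, and it was named after its values were seen. Dut, which supplies the substrate of thymidylate synthase, stood at 37.5 ± 35.7 and 49.2 ± 32.8. Of the ribonucleotide reductase subunits, Rrm1 stood at 28.3 ± 18.8 and 66.2 ± 24.6 and Rrm2, the subunit tied to S phase, at 23.2 ± 36.4 and 1.89 ± 3.28, and neither passed (adjusted p = 0.475 and 0.490 in edgeR). The nucleoside diphosphate kinase genes Nme1 (544 ± 577 and 265 ± 140) and Nme2 (393 ± 550 and 107 ± 57.1) and the deoxynucleotide hydrolase gene Samhd1 (429 ± 178 and 395 ± 129) overlapped. Dctd, the deoxycytidylate deaminase, had too few counts to be tested: WT-labelled replicate 5 had 201, KO-labelled replicate 1 had 68.8 and no other library more than 2. DESeq2 called 2 genes of the list lower, Tk2 and Dtymk, the thymidylate kinase (99.96 ± 127 and 14.1 ± 6.51, DESeq2 adjusted p = 0.0498).

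Purine synthesis, the other large user of folate carbon, held 1 gene wholly above and 1 wholly below. Of 10 tested genes 4 had positive log2 changes, with a median of −1.23. Pfas stood at 381, 404, 426, 15.4 and 321 normalised CPM in the WT-labelled group and 520, 1096 and 1302 in the KO-labelled libraries, with WT-labelled replicate 4 far below the others. Its log2 change of 1.65 (SE 0.82) had an adjusted p of 0.365 in edgeR and 0.166 in DESeq2. Gmps, the last step to GMP, stood at 46.8, 70.2, 135, 152 and 206 against 20.99, 16.8 and 2.86 (log2 change −3.17, SE 1.001, adjusted p = 0.325 in edgeR and 0.00118 in DESeq2), and was named after its values were seen. Paics had 430 ± 243 and 657 ± 248, and Adss, which commits IMP to the adenine branch, 147 ± 107 and 55.7 ± 24.6. Neither differed beyond the spread of the libraries.

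Serine synthesis gave no separation, with 2 of 3 tested genes positive and a median of 0.01. Phgdh, its first enzyme, had 22.2 ± 19.6 and 22.4 ± 13.6 normalised CPM (log2 change 0.01, SE 1.05), Psat1 7.21 ± 14.0 and 12.6 ± 17.2, and Psph 50.5 ± 84.3 and 21.2 ± 19.8. Genes of S phase and proliferation, with which Tyms is commonly grouped, had 5 of 19 tested genes positive and a median of −1.96, and in none were the groups apart. The proliferation marker Mki67 had 63.5 ± 66.7 and 14.6 ± 16.2, Pcna, the DNA polymerase clamp, 240 ± 150 and 77.9 ± 70.6, and Stmn1 281 ± 448 and 73.5 ± 29.1. Ccne2, a cyclin of S phase entry, had 192 ± 227 and 538 ± 203, with overlapping groups because WT-labelled replicate 5 stood at 584 (log2 change 1.48, SE 0.88, adjusted p = 0.407 in edgeR). DESeq2 called 1 gene of the list lower, Uhrf1, a DNA methylation maintenance factor (9.48 ± 10.9 and 0.966 ± 1.03, DESeq2 adjusted p = 0.0351).

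**Figure D4:**
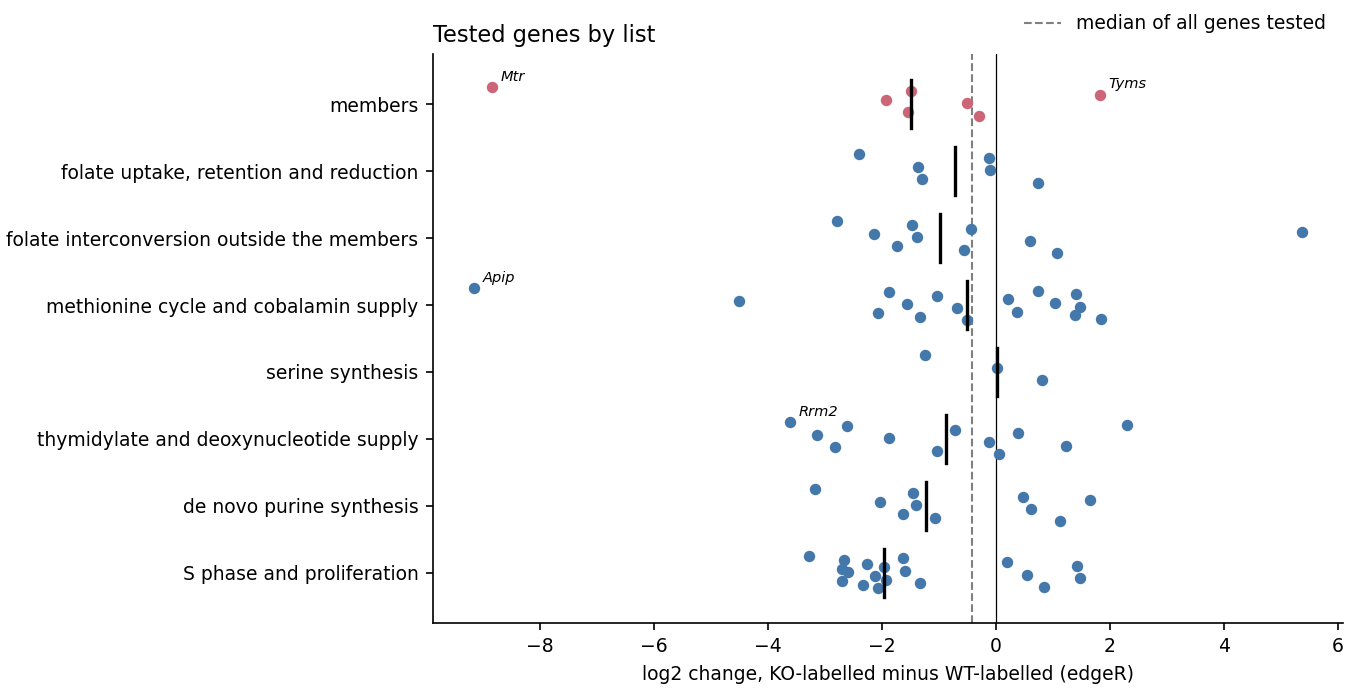
Log2 change (x axis, KO-labelled minus WT-labelled, edgeR) of each tested gene in the 7 members and in 7 pathway lists; points are genes, black bars list medians, and the dashed line the median of all genes tested (−0.42). Tyms lies to the right and Mtr and Apip to the left of the medians of their lists. In edgeR 0 of the 77 pathway genes passed the threshold. The median of the 10750 tested protein-coding genes, which is not drawn, was −0.87.

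Among 5688 protein-coding genes whose mean log2 CPM reached 3, those whose profile over the 8 libraries was most like that of Tyms were P2rx7, Slfn3, Eef2, Sgk2 and Or6p1. Likeness was the root mean square difference of the centred log2 CPM, which was 0.192 for P2rx7, an ATP-gated channel, 0.214 for Slfn3 and for Eef2, translation elongation factor 2, and 0.218 for the kinase gene Sgk2 and the odorant receptor gene Or6p1. The median candidate stood at 2.09. None of the 5 shares a 31-base window with Tyms. P2rx7 stood at 224, 248, 272, 146 and 340 normalised CPM in the WT-labelled group and 490, 843 and 1069 in the KO-labelled libraries, lowest in WT-labelled replicate 4 and highest in KO-labelled replicate 3, as Tyms was. For Mtr the nearest of 5689 genes were Cstf2t (1.54), Bcl2a1d (1.63), Pa2g4 (1.69), Map2k5 (1.70) and Get4 (1.71), against a median of 3.43, so no gene matched Mtr as closely as these matched Tyms. Cstf2t, a relative of a polyadenylation factor gene, had 685, 989, 1111, 279 and 941 counts in the WT-labelled group and 49, 74 and 2 in the KO-labelled libraries, low but not absent.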

How the data were processed

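RNA from sorted Treg cells was made into libraries with the SMART-Seq v4 low-input kit, per the labels' protocols, which amplifies whole transcripts and is unstranded. The table the authors deposited holds estimated counts (expected counts) per gene and gene lengths. Per the submitters' processing notes the build was mm10 and the tools included RSEM, HISAT2, StringTie, fastp and DESeq2, with no roles or versions stated. The sources used here do not state the gene annotation. The table held 0 columns of other samples, and the authors' group means were not used.

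Counts were rounded and tested in R 4.3.3 with edgeR 4.0.16 (filterByExpr, minimum count 10, TMM, quasi-likelihood test, two-sided, KO minus WT, Benjamini-Hochberg over 14755 genes, threshold 0.05) on all 8 libraries without covariates. The SE is the absolute log2 change over the root of the F statistic. TPM was computed from counts and deposited lengths, which equal the length of the first-numbered GENCODE M21 transcript for 7 of 7 members. Of the table's genes 51884 were found in GENCODE M21. Of the 103 pathway genes 1, Adss, was found by its older symbol. The procedure was tested on simulated data. The totals of 4.31 to 17.98 M limit low genes. No 2 libraries of a group agreed within sampling noise (chi-square per degree of freedom at least 58.3).

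The members and lists were chosen with earlier results of these data known. The text names the 7 members, from each list the genes past the threshold or else the 3 with the highest mean, 14 set genes, the 5 most like Tyms and Mtr, and genes marked as named after their values were seen. Some genes that this rule names are left out of the text. The replicate numbers did not pair the libraries: same-numbered libraries had correlations of 0.017, 0.020 and 0.047. Alternatives were DESeq2 1.42.0, its size factors within edgeR, limma-voom (limma 3.58.1) with quality weights, no filter on low counts, a minimum mean of 5 CPM, counts thinned to the smallest total, a replicate block, leaving out the libraries named FY (WT-labelled replicates 2 and 3), leaving out WT-labelled replicates 4 and 5, and leaving out each library. Figures were drawn with matplotlib 3.10.9.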

Additional observations from a re-analysis of the deposited data

Results flagged for a closer look

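Shmt1 in WT-labelled replicate 5 stood at 82.9 normalised CPM, while the other 4 WT-labelled libraries lay between 0 and 0.260, a gap of 0.997 of the group's range against a critical value of 0.71 in Dixon's test. The WT-labelled values of the 7 members were examined in this way and 1 was flagged. With normally distributed values chance flags about 1 in 20 such groups. The values here were not on a log scale and included counts of 0, so that rate need not hold for them. Erythroid markers were highest in the same library, and their part in the Shmt1 value was not tested.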

How the results depend on the processing

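Over 17 alternatives, Tyms kept a positive log2 change (1.36 to 2.30, and 1.36 to 2.05 with a library left out), and Mtr, Mtrr and Mthfd2 kept negative ones. The separation of the groups by which Tyms and Mtr were chosen fixes the signs of Tyms and Mtr, whereas the groups overlapped for Mtrr and Mthfd2. Mtr was −6.98 in limma-voom and −9.43 to −7.84 with a library left out. Shmt1 turned positive in limma-voom (1.097) and without KO-labelled replicate 2 (0.27) or 3 (0.25), was −5.29 without KO-labelled replicate 1, and was below the filter in 4 alternatives. Shmt2 turned positive in limma-voom (1.24) and with the replicate block (1.88), and Mthfd1 without WT-labelled replicate 5 (0.34) or KO-labelled replicate 1 (0.002), ranging from −2.14 to 0.34 with a library left out. The cause was not tested. Against 0 calls over all genes in edgeR (2124 at an unadjusted p under 0.05), there was 1 without a filter, with a mean of at least 5 CPM and after thinning, each time Rps3a3, named after its values were seen. There were 22 in limma-voom, 2421 in DESeq2 and 0 to 0 with a library left out. In the pathway lists, calls were 0 in edgeR, 1 in limma-voom, 6 in DESeq2 and 0 to 0 with a library left out. On the 6 libraries numbered 1 to 3, the replicate block gave 0 calls and 1470 unadjusted, against 0 and 2141 without it, with Tyms at 1.74 and Mtr at −7.81.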
